A study of Mus musculus with 30 samples.

Results

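The genes described here are the interferon-induced gene families of the mouse, chosen by symbol alone. They are the genes whose symbol begins with Ifi, Ifit, Ifih, Ifitm, Irf, Isg, Oas, Oasl, Gbp or Mx followed by a digit, together with Iigp1, Igtp, Irgm1, Irgm2, Rsad2 and Usp18. Of 17782 genes with a probe set annotated to 1 symbol, 62 met this rule. By role they were 8 interferon regulatory factors, 19 antiviral effectors and RNA sensors (the IFIT, OAS and MX families, Ifih1 and Rsad2), and Usp18 and Isg20. There were also 7 interferon-induced transmembrane proteins (IFITM), 6 guanylate-binding proteins (GBP), 5 immunity-related GTPases (IRG), 5 genes of the PYHIN family and 6 other Ifi genes. Another 4 genes (Irf2bp1, Irf2bp2, Irf2bpl and Isg20l2) matched by name only, being partners or relatives of members rather than known interferon targets.

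RNA from snap-frozen kidney and skeletal muscle of 15 mice, all 6 weeks old, was hybridised to Affymetrix Mouse Genome 430 2.0 arrays, which gives 30 arrays. Mutant mice (Kif3aΔTub, genotype Kif3aKSPCre) carry a KSP-Cre driven deletion of Kif3a, a kinesin subunit that primary cilia need, in kidney tubules. Animals received either sActRIIB-Fc, a soluble activin receptor type IIB that traps activins and related ligands, at 10 mg/kg into the peritoneum each week for 2 injections, or PBS. Each tissue had 4 mutants with the trap, 4 mutants with PBS, 4 wild types with the trap and 3 wild types with PBS. All values are log2 array intensities, so a difference of 1 is a doubling, and fold changes are given as log2 ± standard error of the fit. A gene is called changed when its limma p-value, adjusted by Benjamini-Hochberg over all 17782 genes of the tissue, is under 0.05. The sources used here do not say whether littermates were compared.

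Array medians lay between 6.09 and 6.24 in kidney and between 5.94 and 6.06 in muscle, and arrays of the same group correlated at 0.977 or more. Skeletal muscle fibre markers averaged 13.9 to 14.1 per muscle array and 4.34 to 5.03 in the kidney groups, while kidney tubule markers averaged 10.3 to 12.2 in the kidney groups and 4.58 to 4.76 in the muscle groups. Kif3a was at 7.22 to 7.48 in PBS mutant kidneys against 7.76 to 7.89 in PBS wild-type kidneys (-0.50 ± 0.15, limma adjusted p = 0.0110). In trap-treated kidneys it did not pass between the genotypes (-0.02 ± 0.14, adjusted p = 0.905), so the genotype of those arrays rests on their labels. Whether the Kif3a probe set lies within the deleted part was not tested. Members at or below the level of the other tissue's markers in every group numbered 6 in kidney (Gbp2b, Ifi44l, Ifit1bl2, Ifitm7, Mx1 and Oas1h) and 5 in muscle (Gbp8, Ifi202b, Ifi44l, Ifitm7 and Mx1), and values this low may not measure the transcript.

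As background, type I interferons and interferon gamma bind receptor pairs (IFNAR1 with IFNAR2, IFNGR1 with IFNGR2) that signal through JAK kinases to STAT transcription factors. A complex of STAT proteins with IRF9 binds interferon-stimulated response elements, and STAT dimers bind gamma-activated sites. Both switch on interferon-induced genes, though members chosen by symbol need not all be such genes. GBP and IRG genes respond strongly to interferon gamma, whereas IFIT, OAS, MX and Usp18 genes respond strongly to type I interferons, with much overlap. In a whole-tissue RNA sample, fewer cells of a type and less RNA per cell cannot be told apart.

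In PBS-treated kidneys, 31 of the 62 members were higher and 3 were lower in mutants than in wild types, beside 24.9% of all genes called higher and 26.7% called lower in the same comparison. The median fold change of the members was 0.51, beside -0.08 over all genes. Of the 31 rises 19 were at least a doubling, a share not set beside that of all genes that rose. With each array centred on its median, 29 members were higher and 7 lower, and the split over all genes turned to 3842 higher and 6531 lower, against 4420 and 4754 as deposited. The rises lay in several roles, with 4 of 8 regulatory factors, 9 of 19 antiviral genes, 4 of 7 IFITM genes, 4 of 6 GBP genes, 3 of 5 IRG genes and 3 of 5 PYHIN genes. They were fewer among the other Ifi genes, with 1 of 6 (Ifi35), and neither Usp18 nor Isg20 passed. Of the 4 genes matched by name only, 3 also rose.

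Among the regulatory factors, Irf9, the DNA-binding partner of the STAT complex, was at 8.09, 8.33, 7.68 and 7.61 in PBS mutant kidneys, against 6.69, 6.77 and 6.89 in PBS wild-type kidneys. All mutant arrays lay above all wild-type arrays, a difference of 1.14 ± 0.15 (limma adjusted p = 1.31e-05). Irf1, which drives many interferon gamma responses, rose by 1.06 ± 0.14 (adjusted p = 1.3e-05), Irf8, a factor of macrophages and dendritic cells, by 0.81 ± 0.23 (adjusted p = 0.00807), and Irf2, often described as an antagonist of Irf1, by 0.61 ± 0.12 (adjusted p = 0.00061). Irf3, Irf4, Irf5 and Irf7 did not pass the test. Irf7, the amplifier of type I interferon production, was at 7.29, 6.71, 6.14 and 6.26 in PBS mutant kidneys, against 6.50, 6.12 and 6.30 in PBS wild-type kidneys, and the groups overlapped.

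Among the antiviral effectors, Ifit1, which binds viral RNA that lacks the host cap mark, was at 8.38, 7.56, 6.62 and 7.14 in PBS mutant kidneys, against 5.71, 5.73 and 5.87 in PBS wild-type kidneys. It rose by 1.65 ± 0.32 (limma adjusted p = 0.000501), and the mutant arrays spread over a wider range than the wild-type arrays but did not overlap them. Ifit2 and Ifit3, its relatives, rose by 1.30 ± 0.16 and 1.27 ± 0.16. Oas1a, a synthetase of the 2-5A messenger that activates RNase L, was at 8.91, 8.85, 8.12 and 8.16 in PBS mutant kidneys, against 7.09, 7.15 and 7.17 in PBS wild-type kidneys, a rise of 1.37 ± 0.19 (adjusted p = 2.8e-05). The OAS-like gene Oasl2 rose by 1.51 ± 0.26, and Oas1c, Oas2, Oasl1 and the RNA sensor Ifih1 rose by 0.53 to 0.77. Within these families Ifit1bl1 fell by 0.55 and Oas1h fell by 0.41 (adjusted p = 0.0143 and 0.0488). All arrays of Oas1h in both groups lay below the level of the muscle markers in kidney, at 3.35 to 4.22, values that may not measure the transcript, and its call was lost in 14 of 23 alternatives, and Ifit1bl1 lost its call without wild-type PBS replicate 1 or 3. Rsad2, the antiviral enzyme viperin, was at 9.70, 9.18, 8.69 and 8.74 in PBS mutant kidneys, against 9.52, 9.09 and 9.60 in PBS wild-type kidneys, and did not pass the test, and neither did Mx1 or Mx2.

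Ifitm3, which blocks fusion of viruses with endosomes, was at 11.65, 11.32, 11.29 and 11.41 in PBS mutant kidneys, against 9.74, 9.61 and 9.90 in PBS wild-type kidneys. This was a rise of 1.67 ± 0.17 (limma adjusted p = 8.96e-07), with no overlap, and Ifitm1, Ifitm2 and Ifitm10 rose by 1.08 to 1.25. Gbp2, a GTPase that coats pathogen vacuoles, was at 9.06, 8.88, 8.54 and 8.86 in PBS mutant kidneys, against 7.45, 6.87 and 7.23 in PBS wild-type kidneys (1.65 ± 0.18, adjusted p = 1.77e-06). Gbp3, Gbp7 and Gbp8 rose by 0.95, 1.26 and 1.57, and Gbp7 rose by only 0.51 ± 0.11 on its other probe set. Gbp6 fell where other members of the family rose, at 5.86, 6.39, 6.17 and 6.17 in PBS mutant kidneys, against 7.56, 6.44 and 6.74 in PBS wild-type kidneys, a fold change of -0.77 (adjusted p = 0.00957) that did not pass without wild-type replicate 1. The groups of Gbp6 lay close together, and its other probe set, at -0.70 ± 0.30, did not pass. Of the IRG genes, Ifi47 rose by 1.44 ± 0.15, Iigp1 by 0.52 ± 0.18 and Irgm2 by 0.46 ± 0.14, with overlapping arrays for Iigp1 and Irgm2, while Igtp and Irgm1 did not pass. The Iigp1 call was lost with quantile normalization and with median centring.

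The PYHIN gene Ifi207 had the largest rise of all members in this comparison, at 5.84, 5.81, 5.54 and 5.16 in PBS mutant kidneys, against 3.30, 3.02 and 2.73 in PBS wild-type kidneys (2.57 ± 0.30, limma adjusted p = 4.1e-06). Ifi204, a sensor of DNA, rose by 1.47 ± 0.23. Ifi209 rose by 0.63 ± 0.18, though the other Ifi209 probe set did not pass (0.47 ± 0.19). The wild-type arrays of Ifi207, Ifi204, Ifi209 and Gbp8 all lay below 4.79, the median over the muscle markers of their mean level in kidney. These folds thus rest on values that may be close to background and their sizes are uncertain. Ifi202b split its own group, at 3.50, 3.62, 6.27 and 6.24 in PBS mutant kidneys, against 3.67, 3.46 and 3.68 in PBS wild-type kidneys. The same pair of mutants, replicates 3 and 4, was also highest for Ifi202b in muscle, at 4.63 and 4.85 beside 3.86 and 3.75 in the other PBS mutants, and these animals were highest for Gbp8 in kidney, at 5.68 and 5.82 beside 4.46 and 4.00. For other members they were the lowest of their group, as with Oas1a and Irf9 above and Usp18, which was at 6.13 and 6.60 on their arrays beside 7.47 and 7.44 in the other PBS mutants. Both lay below the other PBS mutants for 15 of the 31 members that rose (48.4%), beside 466 of all 4420 genes that rose (10.5%), and above them for 6 (19.4%), beside 960 of those genes (21.7%). With both left out of the fit, an alternative chosen after seeing the data, 30 members were higher and 2 lower. Irf8, Oas2, Iigp1 and Ifit1bl1 lost their calls while Usp18 and Isg20 gained one. Over all genes 3638 were then higher and 3383 lower, against 4420 and 4754 with both kept.

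The difference between genotypes was measured again on separate animals, those that received the trap. In those kidneys, 38 members were higher and 1 lower in mutants than in wild types, beside 22.2% of all genes higher and 24.2% lower, with a median of 0.75 for the members and -0.06 over all genes. Centring moved the fold changes of this comparison by -0.11 and gave 36 members higher and 5 lower, with 3209 genes higher and 6959 lower over all genes against 3944 and 4308 as deposited. Of the 31 members higher under PBS, 29 (93.5%) were also higher under the trap, and they made up 76.3% of the 38. Over all genes, 3350 of the 4420 higher under PBS (75.8%) were also higher under the trap, and these made up 84.9% of those higher under the trap. The exceptions were Ifitm1 and Oas1c. The members called under the trap and not under PBS were Ifi213, Ifi27, Ifi27l2a, Ifitm6, Igtp, Irf7, Irgm1, Mx1 and Usp18, of which Igtp and Irgm1 lost their calls with median centring. Oas1a was at 9.35, 9.32, 9.01 and 9.05 in trap-treated mutant kidneys, against 7.01, 7.66, 7.28 and 7.17 in trap-treated wild-type kidneys, and rose by 1.91 ± 0.18 (limma adjusted p = 7.97e-07). Oasl2 rose by 1.78. Ifi207, Ifi204 and Ifi209 rose by 2.66, 2.06 and 1.72, sizes that are uncertain because every trap-treated wild-type array of these genes, as of Gbp8 and Mx1, lay below 4.79. Irf3, a constitutive regulatory factor, was the 1 member that fell, by 0.30 (adjusted p = 0.0213).

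**Figure D1:**
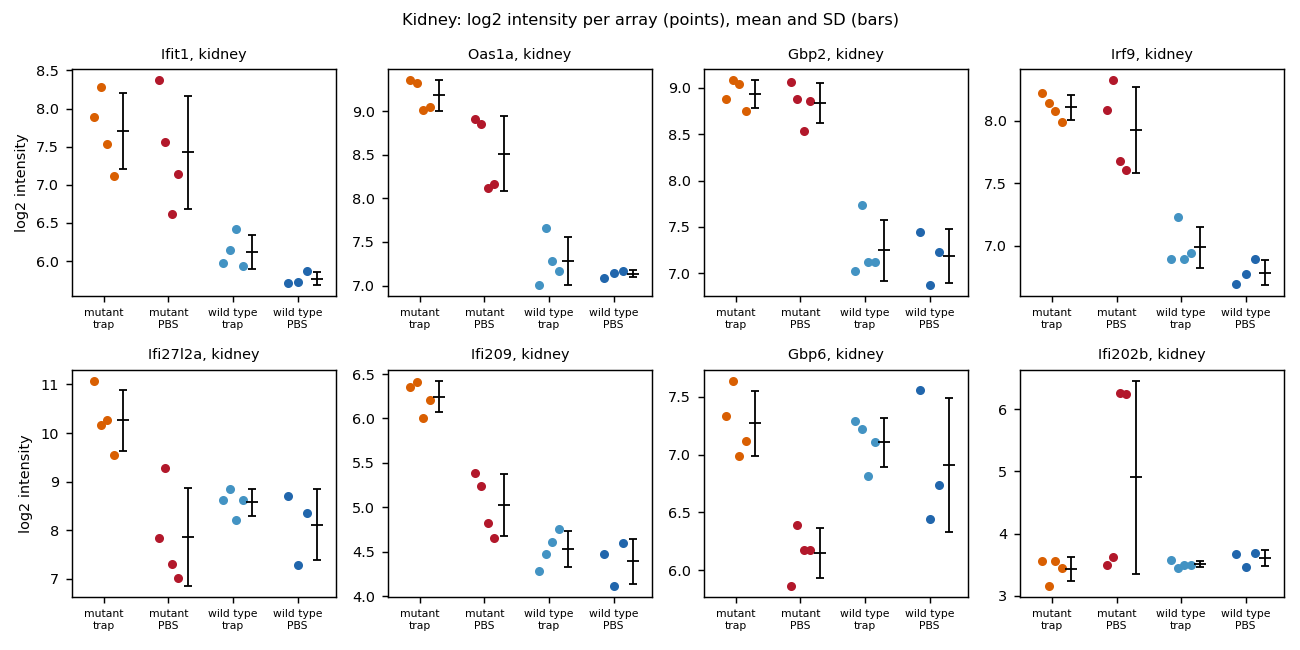
Log2 intensity of 8 members on each kidney array (y axis) in 4 groups (x axis), with points for arrays and bars for the mean and SD of the group. Ifit1, Oas1a, Gbp2 and Irf9 are higher in both mutant groups than in both wild-type groups, Ifi27l2a, Ifi209 and Gbp6 are highest or near highest in trap-treated mutants, and Ifi202b reaches 6.27 and 6.24 on 2 PBS mutant arrays against 3.15 to 3.68 on the other 13.

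Markers of macrophages rose and most markers of tubules fell in the same comparisons. In trap-treated kidneys all 10 macrophage markers were higher in mutants, with a median fold change of 2.86, at 9.48 to 10.0 per array in trap-treated mutants against 6.69 to 7.31 in trap-treated wild types, and of 8 tubule markers 6 were lower and 1 higher (median -1.64). All 10 macrophage markers were higher in PBS mutant kidneys, with a median fold change of 3.19, and their mean level per array was 9.58 to 9.94 in PBS mutants against 6.38 to 6.69 in PBS wild types. Of 8 tubule markers, 7 were lower and 1 was higher in PBS mutant kidneys (median -2.39), of 4 neutrophil markers 2 were higher, and of 5 NK cell markers 3 were lower. The other lists gave 1 of 5 dendritic cell markers, 1 of 7 endothelial markers and 1 of 4 B cell markers higher, with 2 B cell markers lower. The markers of plasmacytoid dendritic cells, the cells that make most type I interferon, had no call among 4. The NK cell list averaged 3.86 to 4.07 per array in PBS mutant kidneys and 4.21 to 4.26 in PBS wild-type kidneys, below 4.79. The plasmacytoid list had means of 4.51 and 4.64 in these groups, so both lists may not measure their transcripts. The neutrophil list lay below 4.79 in PBS wild-type kidneys, at 4.53 to 4.63 per array. Of 6 T cell markers 1 was higher and 1 lower, and 1 of 2 podocyte markers and 1 of 8 muscle fibre markers were lower. The difference between the 3′ and 5′ actin control signals, a sign of RNA quality, also moved with this comparison, with a median of 1.06 and a highest value of 1.37 in PBS mutant kidneys against a median of 1.43 in PBS wild-type kidneys, and the groups did not overlap. With it as a covariate 27 members were higher and 1 was lower under PBS, and 35 were higher and none lower under the trap. The 18S control signal was 12.9 to 13.4 in PBS mutant kidneys and 13.0 to 13.1 in PBS wild-type kidneys, and with it as a covariate 32 members were higher and 2 lower. The part of these cells and of RNA quality in the members' rises was not tested beyond these fits. Calls over all genes are not given here for the covariate fits.

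In PBS-treated muscle, 14 members were lower and 2 were higher in mutants than in wild types, beside 9.04% of all genes called lower and 6.93% called higher. The members' median was -0.11 and that of all genes -0.05. Of the 14 falls 9 were at least a halving, a share not set beside that of all genes that fell. With arrays centred on their median, 12 members were lower and 3 higher, and the split over all genes was 1595 higher and 1326 lower, against 1232 and 1608 as deposited. The falls lay in the GBP genes (3 of 6), the IRG genes (3 of 5), the antiviral genes (4 of 19), the regulatory factors (2 of 8), Usp18 and Ifi35.

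Ifit1 was at 4.70, 4.66, 4.31 and 4.48 in PBS mutant muscles, against 5.62, 5.56 and 5.60 in PBS wild-type muscles, a fold change of -1.06 ± 0.14 (limma adjusted p = 0.000128). Usp18, the protease that removes ISG15 and dampens interferon receptor signalling, was at 4.36, 5.09, 5.26 and 4.75 in PBS mutant muscles, against 6.30, 6.39 and 5.91 in PBS wild-type muscles (-1.34 ± 0.22, adjusted p = 0.000944). The groups did not overlap for either gene. Ifit3, Oasl2 and Rsad2 fell by 1.13, 0.77 and 0.60, and Irf5 and Irf9 fell by 0.57 and 0.46. The calls of Rsad2 and Irf9 were lost with median centring. Of the 4 PBS mutant arrays of Oasl2, 3 lay below 4.46, the level of the kidney markers in muscle, as did 1 each of Ifit1 and Usp18, so the size of the Oasl2 fall is uncertain. Isg20, an RNA exonuclease, did not pass.

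Gbp7 was at 6.80, 8.07, 7.88 and 7.50 in PBS mutant muscles, against 8.73, 8.51 and 8.95 in PBS wild-type muscles (-1.17 ± 0.22, limma adjusted p = 0.00206). Gbp3 and Gbp2, its neighbours on chromosome 3, fell by 1.28 and 1.21, and these genes and Ifit1 were called with every alternative that tested them. Irgm2, a regulator of other IRG proteins, was at 5.90, 6.37, 6.76 and 5.97 in PBS mutant muscles, against 7.72, 7.57 and 7.88 in PBS wild-type muscles (-1.48 ± 0.28, adjusted p = 0.00233). Igtp, another IRG protein, fell by 1.17. Iigp1, an IRG effector that loads onto pathogen vacuoles, had the largest fold change, -1.97 ± 0.45 (adjusted p = 0.008), with 6.33, 6.93, 6.79 and 6.32 in PBS mutant muscles, against 8.11, 7.85 and 9.73 in PBS wild-type muscles. Its wild-type arrays spread widely, with 1 at 9.73, and the groups did not overlap. The 2 members that rose were Ifitm1, at 0.72 ± 0.22, and Isg20l2, a member by name only, at 0.46 ± 0.14 with overlapping arrays.

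Technical controls and cell markers moved with the muscle comparison. The 18S ribosomal RNA control signal was 12.5 to 13.1 in PBS mutant muscles and 13.1 to 13.3 in PBS wild-type muscles, and with it as a covariate 4 members were called in place of 16. With the difference between the 3′ and 5′ actin control signals as a covariate 9 were called, and without PBS wild-type replicate 1 the count was 10. Without PBS mutants 3 and 4 together it was 11, of which 9 were among the 16. In that fit 571 of all genes were higher and 1165 lower, against 1232 and 1608 with these arrays. Calls over all genes are not given here for the covariate fits, so a loss particular to the members is not shown. Of 10 macrophage markers 3 were lower in PBS mutant muscles (median -0.55), at 6.59 to 7.58 per array in PBS mutants against 7.16 to 7.51 in PBS wild types, of 4 B cell markers 1 was lower, of 4 neutrophil markers 1 was higher, and 1 of 7 endothelial and 1 of 8 muscle fibre markers were lower. Their part in the members' falls was not tested.

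**Figure D2:**
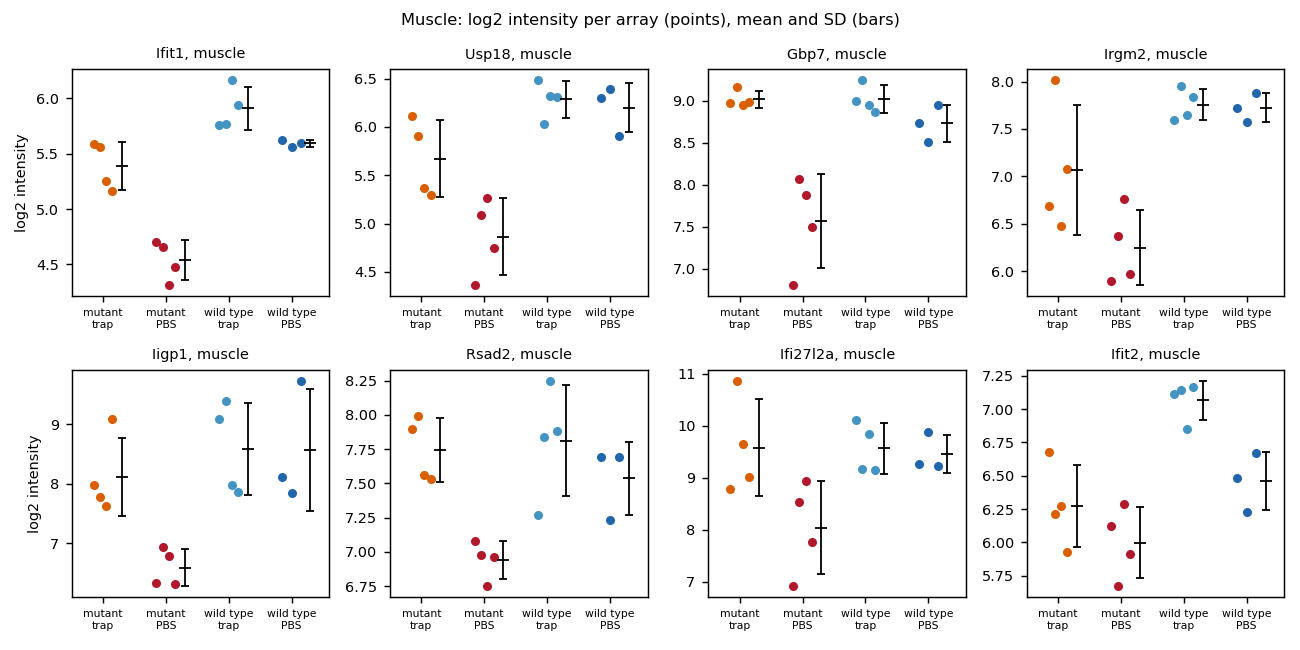
Log2 intensity of 8 members on each muscle array (y axis) in 4 groups (x axis), with points for arrays and bars for the mean and SD. Ifit1, Usp18, Gbp7, Irgm2, Iigp1 and Rsad2 are lowest in PBS mutants, and Gbp7 lies at 8.95 to 9.16 in trap-treated mutants against 6.80 to 8.07 in PBS mutants.

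Since kidney and muscle came from the same animals, the difference between the 2 genotype effects was tested directly, in 1 limma fit with the animal as a random block. Under PBS, the kidney effect exceeded the muscle effect for 28 members and lay below it for 3, beside 19.7% of all genes above and 17.5% below. Centring moved these differences by -0.14 and gave 27 above and 4 below, with 2896 above and 4713 below over all genes, against 3502 and 3107 as deposited. The largest differences were those of Gbp2 (2.86 ± 0.27, limma adjusted p = 2.98e-09), Ifit1 (2.71 ± 0.35, adjusted p = 3.82e-07), Iigp1 (2.49 ± 0.51, adjusted p = 0.000248), Gbp7 (2.43 ± 0.28, adjusted p = 6.66e-08) and Ifit3 (2.41 ± 0.29, adjusted p = 1.61e-07). Gbp6, Ifit1bl1 and Oas1e ran the other way, at -1.12, -0.90 and -0.35, with Ifit1bl1 below 4.46 on every PBS wild-type muscle array. Of the 14 members that fell in muscle, 10 (71.4%) were among the 31 that rose in kidney (32.3% of those). Since 31 of all 62 members rose in kidney, this share is read beside that rate, and over all genes 649 of the 1608 that fell in muscle (40.4%) rose in kidney. The 10 were Gbp2, Gbp3, Gbp7, Ifi35, Ifit1, Ifit3, Iigp1, Irf9, Irgm2 and Oasl2.

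**Figure D3:**
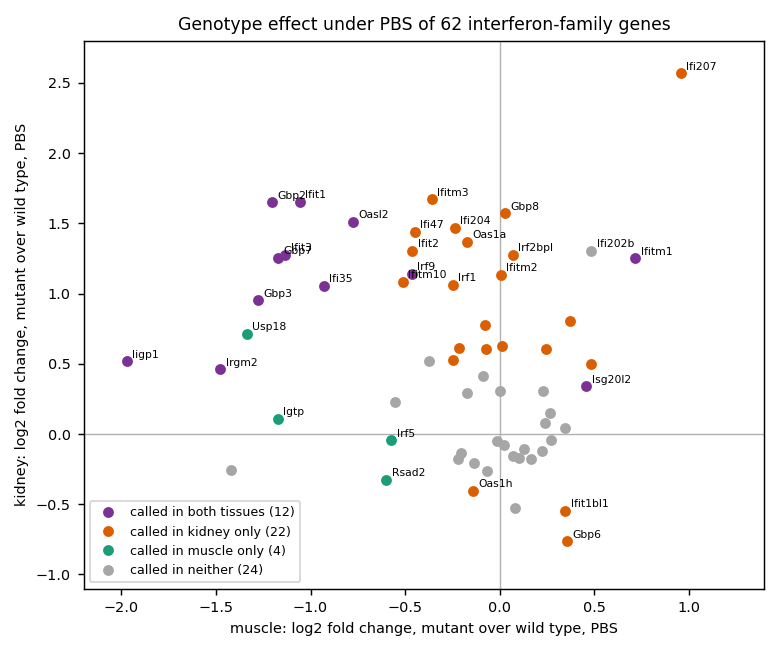
Each point is 1 of the 62 members, with its log2 fold change of mutant over wild type under PBS in kidney (y axis) against that in muscle (x axis), coloured by where it was called. Of the 12 members called in both tissues, 10 lie in the upper left, higher in mutant kidney and lower in mutant muscle, and Ifitm1 and Isg20l2 lie in the upper right.

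Promoter segments are shown for 9 members that rose in mutant kidney, fell in PBS mutant muscle or did both, chosen because they carry the letters of the interferon-stimulated response element. RefSeq windows (GRCm38.p6) were given for 49 of the 62 members, and the 250 bases before the start site were searched on both strands. The element was searched as GAAA, then any 2 bases, then GAAA, which reads TTTC, any 2 bases, TTTC on the other strand, and 19 of the 49 members (38.8%) held it, beside 936 of 27025 genes with a window (3.46%). The gamma-activated site was searched as TTCNNNGAA, and 12 members (24.5%) held it, beside 2197 genes (8.13%). A base may belong to matches of both motifs, and a match is a description of letters, not a site in use. Of the 12 members with a window that fell in PBS mutant muscle, 8 held the response element, as did 11 of the 27 that rose in PBS mutant kidney and 7 of the 20 not called there. Ifit1 and Ifit1bl2 lie head to head and share most of 1 window, so their matches are the same letters.
The segments below run in the direction of the gene with the matches to the response element, and no others, in capitals, at chr19:34640770-34640828 (plus strand) for Ifit1, chr19:34583358-34583431 (plus) for Ifit3, chr3:142620589-142620628 (plus) for Gbp2, chr3:142559984-142560029 (plus) for Gbp3, chr3:142530268-142530307 (plus) for Gbp7, chr11:58199507-58199546 (plus) for Igtp, chr11:58214898-58214937 (plus) for Irgm2, chr5:120907526-120907560 (minus) for Oas1a and chr12:26456548-26456587 (minus) for Rsad2.
Ifit1: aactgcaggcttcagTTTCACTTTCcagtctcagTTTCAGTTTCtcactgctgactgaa
Ifit3: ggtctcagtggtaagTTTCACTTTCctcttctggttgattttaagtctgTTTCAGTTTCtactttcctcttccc
Gbp2: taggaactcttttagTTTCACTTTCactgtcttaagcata
Gbp3: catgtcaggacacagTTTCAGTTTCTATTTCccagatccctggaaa
Gbp7: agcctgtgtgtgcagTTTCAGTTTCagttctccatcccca
Igtp: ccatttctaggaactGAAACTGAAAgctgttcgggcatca
Irgm2: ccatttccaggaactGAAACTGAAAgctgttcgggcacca
Oas1a: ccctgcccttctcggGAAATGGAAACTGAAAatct
Rsad2: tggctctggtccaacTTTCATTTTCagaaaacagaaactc
Ifit1 and Ifit3 each held 2 separate matches, and Gbp3 and Oas1a each held 2 that overlap. The segments of Igtp and Irgm2 matched at 38 of 40 bases, so these neighbouring genes are not separate examples. Both also hold a match to TTCNNNGAA, left in lower case. Ifi47, Ifit2, Ifitm3, Irf9 and Oasl2, which rose in PBS mutant kidneys, held no match to the response element in the window.

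The trap moved few members in kidney. In mutant kidneys 5 members were higher with the trap than with PBS and none was lower, beside 1.07% of all genes higher and 1.33% lower, and the members' median was 0.16 beside -0.01 over all genes. Fitted without the wild types 3 were called, without PBS mutant replicate 4 there were 3, and without PBS mutant replicate 2 there were 9. Without PBS mutants 3 and 4 together there was 1, Ifi209. In that last fit 67 of all genes were higher and 77 lower, against 191 and 236 with these arrays. Unadjusted p-values under 0.05 were found for 18 members higher and 2 lower, beside 7.01% of all genes higher and 7.94% lower at that threshold. Ifi27l2a, an interferon-induced membrane protein of mitochondria and the nuclear envelope, was at 11.08, 10.17, 10.26 and 9.54 in trap-treated mutant kidneys, against 7.84, 9.29, 7.30 and 7.01 in PBS mutant kidneys. It rose by 2.40 ± 0.43 (limma adjusted p = 0.00854), without overlap, and 1 PBS mutant array stood above the others at 9.29. Ifi209 was at 6.36, 6.41, 6.01 and 6.21 in trap-treated mutant kidneys, against 5.39, 5.24, 4.82 and 4.65 in PBS mutant kidneys (1.22 ± 0.16, adjusted p = 0.00122), and its other probe set rose alike (1.29 ± 0.18). Ifi213 was at 6.45, 6.20, 4.97 and 5.85 in trap-treated mutant kidneys, against 4.56, 4.87, 4.51 and 4.29 in PBS mutant kidneys (1.31 ± 0.26, adjusted p = 0.0141), while its other probe set, at 0.42 ± 0.11, did not pass. Of the 4 PBS mutant arrays of Ifi213, 3 lay below 4.79, as did 1 of Ifi209, so the size of the Ifi213 rise is uncertain. Gbp6 was at 7.33, 7.64, 6.99 and 7.12 in trap-treated mutant kidneys, against the PBS mutant values above (1.12 ± 0.21, adjusted p = 0.00952). This rise and the fall of Gbp6 given above share the PBS mutant arrays, so they are set side by side only. Gbp3 rose by 0.71 ± 0.16 (adjusted p = 0.0261).

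In wild-type kidneys no member was called for the trap, beside 0.877% of all genes called in either direction, and 6 members had an unadjusted p under 0.05, beside 13.2% of all genes. The trap effect in mutants minus that in wild types was called for Ifi209 only (1.09 ± 0.24, limma adjusted p = 0.0359), whose wild-type arrays all lay below 4.79, beside 0.664% of all genes higher and 0.72% lower, and 9 members had an unadjusted p under 0.05, beside 13.5% of all genes. Quantile normalization, a replicate block, the 18S covariate, leaving out PBS mutants 3 and 4 together and 9 of the 15 fits without a single array ended that call. For Ifi27l2a, Ifi213, Gbp6 and Gbp3 a different response in mutants and wild types was therefore not shown. The 18S control signal was 12.0 to 12.7 in trap-treated mutant kidneys and 12.9 to 13.4 in PBS mutant kidneys. With it as a covariate 1 of the 5 rises in mutants was called, and calls over all genes are not given here for that fit. None of the 10 macrophage markers changed with the trap in mutant kidneys (median -0.03, at 9.48 to 10.0 per array in trap-treated mutants and 9.58 to 9.94 in PBS mutants), while 1 of 8 tubule markers, Slc12a3, rose. The tubule list had a median of 0.99 in this comparison, at 10.9 to 11.3 per array in trap-treated mutants and 9.67 to 10.7 in PBS mutants without overlap, and its part in the members' rises was not tested.

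In mutant muscle, 7 members were higher with the trap than with PBS and none was lower, beside 4.18% of all genes higher and 2.15% lower, with medians of 0.12 for members and 0.03 over all genes. Gbp7 was at 8.97, 9.16, 8.95 and 8.98 in trap-treated mutant muscles, against 6.80, 8.07, 7.88 and 7.50 in PBS mutant muscles (1.45 ± 0.20, limma adjusted p = 0.00126). Its trap-treated arrays lay close together and above every PBS mutant array, and its other probe set rose too (1.10 ± 0.20). Ifit1 was at 5.59, 5.56, 5.25 and 5.16 in trap-treated mutant muscles, against 4.70, 4.66, 4.31 and 4.48 in PBS mutant muscles (0.85 ± 0.13, adjusted p = 0.00189). Rsad2 was at 7.90, 7.99, 7.56 and 7.53 in trap-treated mutant muscles, against 7.08, 6.98, 6.75 and 6.96 in PBS mutant muscles (0.80 ± 0.18, adjusted p = 0.0163). Neither gene overlapped between the groups. Gbp3, Usp18, Iigp1 and Ifi27l2a rose by 0.83, 0.81, 1.52 and 1.55, with adjusted p-values of 0.00785, 0.0296, 0.0421 and 0.0482. Of 24 alternatives other than leaving out those 2 animals, 11 ended the call of Iigp1 and 18 that of Ifi27l2a. Ifi27l2a overlapped between the groups (8.78, 10.87, 9.65 and 9.01 in trap-treated mutants, 6.91, 8.54, 8.93 and 7.76 in PBS mutants).

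These rises and the falls of PBS mutants against PBS wild types share the PBS mutant arrays, so they are set side by side only. Their values were 1.45 and -1.17 for Gbp7, 0.85 and -1.06 for Ifit1, 0.83 and -1.28 for Gbp3, 0.81 and -1.34 for Usp18, 1.52 and -1.97 for Iigp1, and 0.80 and -0.60 for Rsad2. Between trap-treated mutants and trap-treated wild types, a comparison that shares its mutant arrays with the rises and no array with the falls, 1 member fell and none rose, beside 1.51% of all genes lower and 0.146% higher, and 17 members had an unadjusted p under 0.05 (2 higher and 15 lower), beside 4.29% of all genes higher and 8.41% lower at that threshold. That member was Ifit2, at 6.68, 6.21, 6.27 and 5.93 in trap-treated mutant muscles, against 7.11, 7.14, 6.85 and 7.17 in trap-treated wild-type muscles (-0.79 ± 0.16, limma adjusted p = 0.0205). With array weights 10 members were called there. The calls over all genes are not given here for that fit, so a gain particular to the members is not shown.

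In wild-type muscle no member was called for the trap, beside 0.0619% of all genes called in either direction, and 9 members had an unadjusted p under 0.05, beside 11.6% of all genes. The trap effect in mutants minus that in wild types gave no called member either, beside 0.169% of all genes called, and 15 members had an unadjusted p under 0.05, beside 14.6% of all genes. Of the 15, 12 were positive, beside 8.27% of all genes positive and 6.34% negative at that threshold. Without PBS mutant replicate 2, 3 members were called for that difference. The muscle response was thus not shown to differ between the genotypes. With the 18S signal as a covariate none of the 7 rises in mutants was called, with the actin covariate 3 were, without trap-treated mutant replicate 2 there were 3, without PBS mutant replicates 1 or 4 there were 4 each, and without PBS mutant replicate 2 there were 17. Without PBS mutants 3 and 4 together 2 were called, Gbp7 and Ifit1. In that fit 412 of all genes were higher and 72 lower, against 743 and 382 with these arrays. Calls over all genes are not given here for the covariate fits, so a loss particular to the members is not shown. Of 10 macrophage markers 2 rose with the trap in mutant muscle (median 0.53, at 7.21 to 7.68 per array in trap-treated mutants and 6.59 to 7.58 in PBS mutants), 1 of 4 B cell markers rose and 1 of 4 neutrophil markers fell. Their part was not tested.

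The trap effect in mutants differed between kidney and muscle for 3 members, beside 1.77% of all genes higher in kidney and 3.5% lower. Gbp6 (1.30, limma adjusted p = 0.0346) and Ifi213 (1.23, adjusted p = 0.0207) responded more in kidney, and Gbp7 (-1.12, adjusted p = 0.00989) responded more in muscle. The difference of Gbp6 was lost in 6 of 20 alternatives and that of Ifi213 in 4 of 19. The size of the Ifi213 difference is uncertain, as 3 of its 4 PBS mutant kidney arrays lay below 4.79. Ifi27l2a, called in both tissues, did not pass this test.

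**Figure D4:**
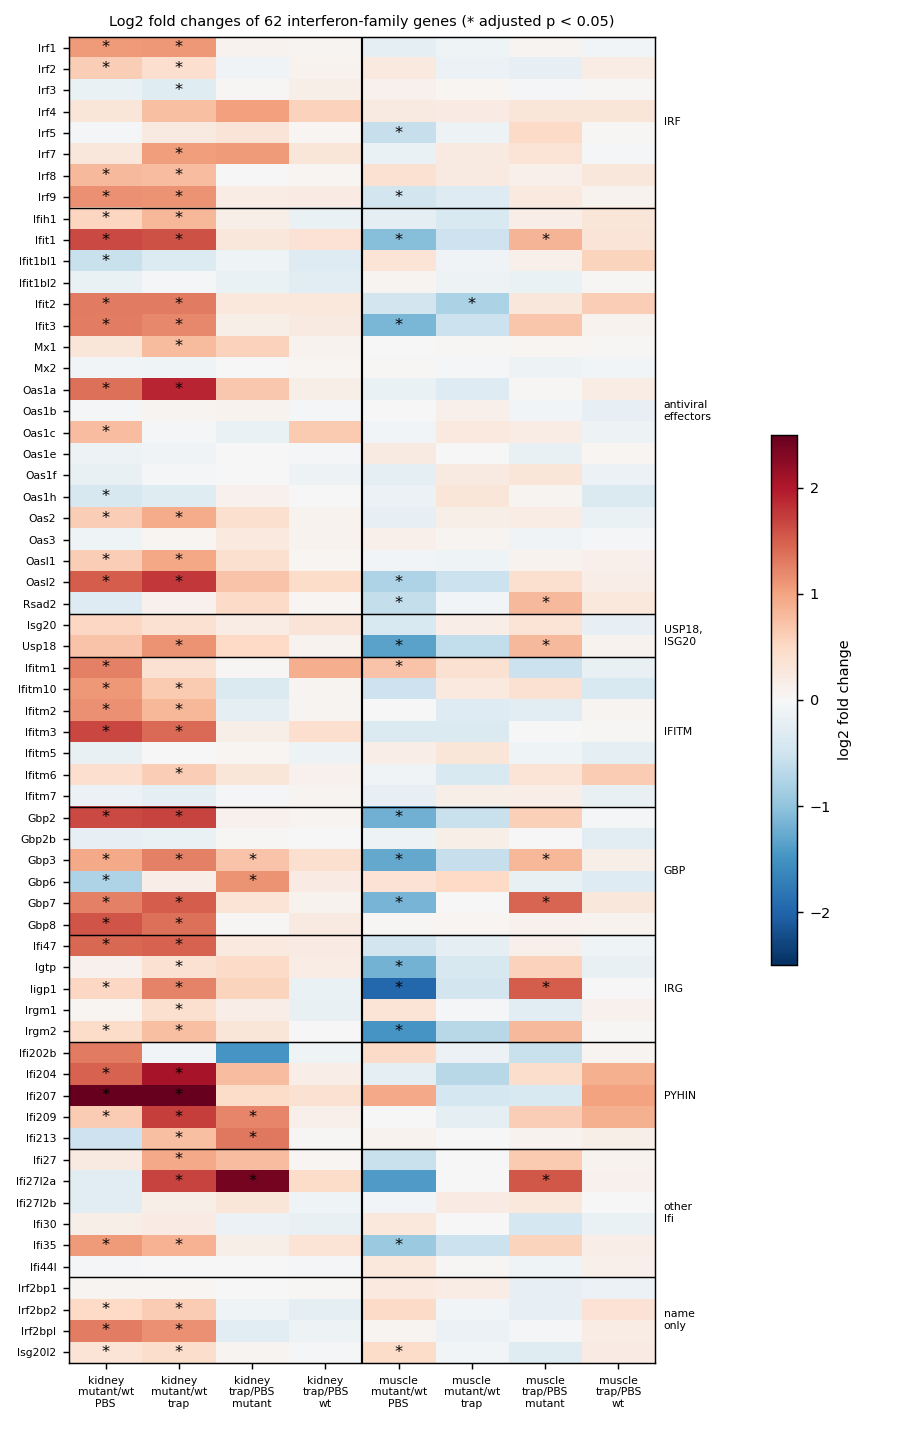
Log2 fold changes of the 62 members (rows, grouped by role) in 4 comparisons for kidney and 4 for muscle (columns, wt for wild type), with red for higher and blue for lower in the first-named group and a star where the adjusted p was under 0.05. The 2 genotype columns of kidney hold 31 and 38 starred rises, the genotype column of PBS muscle holds 14 starred falls, and the 2 wild-type trap columns hold no star.

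Genes of the pathway outside the rule were read from lists. All 6 interferon receptor genes measured rose in PBS mutant kidneys (median 1.10), among them Ifnar1 at 1.18 ± 0.08 and Ifngr1 at 1.32 ± 0.15. Ifngr2 was at 9.02 to 9.32 in PBS mutant kidneys, against 7.47 to 7.79 in PBS wild-type kidneys. Of 5 ligand genes none rose and 2 fell there, and Ifng and Ifnb1 did not pass. Of 9 signalling genes 3 rose, among them the kinase Tyk2 at 0.40 ± 0.12, and of 14 sensing genes 7 rose and 1 fell. Of 15 genes of antigen processing and interferon gamma response, 13 rose (median 0.88), with the immunoproteasome subunits Psmb8 at 1.69 ± 0.17 and Psmb9 at 0.70 ± 0.17, the peptide transporter Tap1 at 0.79 ± 0.20 and the chemokine Cxcl10 at 1.63 ± 0.24. Of 34 other interferon-induced genes 23 rose and 2 fell (median 0.65). The share of all genes for these counts is the 24.9% and 26.7% given above.

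In PBS mutant muscle, beside the 9.04% of all genes lower and 6.93% higher, the same lists gave no called ligand among 5, and 2 of 6 receptor genes fell, Ifngr2 at -1.02 ± 0.17 and Ifnar2 at -0.59 ± 0.17. Of 9 signalling genes 1 rose, Stat3 at 0.70 ± 0.20, and of 14 sensing genes 1 fell, the RNA sensor Tlr3 at -0.52 ± 0.14. Of 15 antigen processing and interferon gamma genes 1 fell, the chemokine Cxcl9, at -1.74 ± 0.29, and of 34 other interferon-induced genes 12 fell and 1 rose (median -0.37). With the trap in mutant muscle, beside 4.18% of all genes higher and 2.15% lower, Ifngr2, Cxcl9 and Tlr3 rose by 0.84 ± 0.16, 1.49 ± 0.27 and 0.51 ± 0.13 as the 1 call of their lists, Stat3 fell by 0.75, and 7 of the 34 rose and none fell. In mutant kidneys with the trap, beside 1.07% of all genes higher and 1.33% lower, 3 of the 15 antigen processing and interferon gamma genes rose, with Cxcl10 at 1.08 ± 0.22 and Cxcl9 at 1.24 ± 0.31, of 9 signalling genes 1 rose, the STAT partner Stat2 at 0.56 ± 0.14, and of 14 sensing genes 1 rose, the nucleic acid sensor Zbp1 at 0.42 ± 0.11. Of 6 receptor genes 1 fell, Ifnar1 at -0.37 ± 0.08, and of the 34 other genes 3 rose.

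In PBS wild-type mice the tissues were also compared with each other. Kidney was higher than muscle for 13 members and lower for 14, smaller shares than the 28.5% of all genes higher and 36.1% lower. Centring gave 12 members higher and 18 lower, with 4644 higher and 7724 lower over all genes, against 5061 and 6425 as deposited. Ifit1bl1 (2.28 ± 0.19), Ifitm1 (2.22 ± 0.25), the lysosomal thiol reductase Ifi30 (2.15 ± 0.43), Rsad2 (1.86 ± 0.23) and Ifit3 (1.00 ± 0.22) were the most kidney-biased. Ifi207 (-1.70 ± 0.36), Ifitm10 (-1.65 ± 0.22), Ifi27l2a (-1.34 ± 0.52), Ifi204 (-1.30 ± 0.24) and Gbp7 (-1.15 ± 0.21) were the most muscle-biased. The wild-type kidney arrays of Ifi207 (2.73 to 3.30) and Ifi204 (2.74 to 3.85) lay below the level of 4.79 that marked values close to background in kidney, so the sizes of these differences and their rank are uncertain. The same holds for Ifit1bl1, whose PBS wild-type muscle arrays (4.05 to 4.39) all lay below the level of 4.46 for muscle. In muscle, Ifi207 was at 6.61, 4.73, 5.43 and 5.93 in PBS mutants, against 4.27, 4.92 and 4.97 in PBS wild types, and did not pass.

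A regulatory factor and 1 other Ifi gene had single high arrays. Irf4, a factor of plasma cells and activated lymphocytes, was at 7.31, 4.44, 4.89 and 4.79 in trap-treated mutant kidneys and at 4.02, 4.19, 3.98 and 6.21 in trap-treated wild-type kidneys, against 4.12 to 4.60 in PBS mutant kidneys and 3.92 to 4.14 in PBS wild-type kidneys. The wild-type animal at 6.21 in kidney was also the highest of its group in muscle, at 6.05 beside 4.24 to 4.44. Ifi30 in muscle was at 9.33 in 1 trap-treated mutant and at 9.74 in 1 PBS mutant, and at 6.64 to 8.03 on the other 13 arrays.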

How the data were processed

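Per the labels' protocols, RNA was extracted with QIAZOL from snap-frozen tissue and hybridised to 1-colour Affymetrix arrays. The deposited table holds log2 intensity values of 35088 probe sets on 30 arrays, and no further transformation was applied. The authors' summarisation, background correction and normalization were not given in the sources used here. Probe sets were named from GEO's platform annotation: 31563 had 1 gene symbol, 825 had several (left out) and 2700 were not listed with a gene. Per gene and tissue the probe set with the highest mean was used, which gave 17782 genes. The 62 members had 84 probe sets, 16 members had more than 1, and 2 used different probe sets in the tissues. For 9 members the one used ends in _s_at or _x_at, which marks probes that may also match related transcripts (among them Gbp2, Ifi35 and Ifi202b). Isg15 and Ifi44 were not analysed here.

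Each tissue was fitted with limma 3.58.1 in R 4.3.3 (lmFit and eBayes) as 4 group means over 15 arrays, with Benjamini-Hochberg adjustment over all genes. Comparisons between tissues used 1 fit of 30 arrays with the animal, named by the number in the sample titles, as a random block (consensus correlation 0.0749). The method was tested on simulated data with known changes. Array number, 3 or 4 per group, limits the precision, and no batch is named in the labels.

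The members, lists and covariates were chosen with earlier results of these data known. Genes were named by rule: up to 8 called members per direction for genotype under PBS and for the trap in mutants, up to 5 for other comparisons, all regulatory factors, and fixed representatives and pathway genes. The names Ifi202b, Ifi207 in muscle, Irf2bpl and the remaining called members were added after their values were seen. Replicate numbers were checked for pairing: same-numbered arrays correlated over 0.1 in 6 of 21 pairs in muscle and 4 of 21 in kidney, so they were not treated as pairs. Other settings tried were array weights, averaging a gene's probe sets, quantile normalization, a filter keeping genes above the tissue's median level, centring on array medians, fits of the compared groups alone, a replicate block, 18S and actin covariates, leaving out each array or animal in turn and, chosen after seeing the data, leaving out PBS mutants 3 and 4 together. Promoter motifs were searched with Python 3.11.15 and figures drawn with matplotlib 3.10.9.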

Additional observations from a re-analysis of the deposited data

Results flagged for a closer look

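Groups of 4 arrays were tested for a single array that stands apart over the members named by rule, 34 in kidney and 30 in muscle, and the other members were not tested. Of these 192 groups 16 were flagged (gap to the nearest array over the group's range above Dixon's critical value of 0.829), and chance flags about 1 in 20. In muscle, high arrays were Gbp7 in trap-treated mutants (9.16, others 8.95 to 8.98), Ifih1 in PBS mutants (6.71, others 6.43 to 6.47), Oas1a in PBS mutants (7.23, others 6.58 to 6.67), Irf4 in trap-treated wild types (6.05, others 4.24 to 4.44) and Irf7 in trap-treated wild types (6.24, others 5.84 to 5.88). Irf5 was low on 1 array of trap-treated mutant muscle (6.03, others 6.36 to 6.42). In mutant kidney, high arrays were Ifi207 with the trap (6.80, others 5.77 to 5.85), Irf4 with the trap (7.31, others 4.44 to 4.89), Irf8 with the trap (7.58, others 7.19 to 7.24) and Ifi27 with PBS (9.88, others 9.00 to 9.03), and Irf5 with PBS had 1 low array (6.13, others 6.35 to 6.38). In trap-treated wild-type kidney, high arrays were Gbp2 (7.74, others 7.02 to 7.12), Ifi213 (5.68, others 4.87 to 4.99), Irf4 (6.21, others 3.98 to 4.19) and Irf9 (7.23, others 6.89 to 6.94), and Gbp8 had 1 low array (3.30, others 3.73 to 3.78). The high arrays of Gbp2 and Irf9 were the same library, trap-treated wild-type kidney replicate 2.

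The difference of an effect between groups, tested with limma, was flagged for 12 named results, which are up to 5 of the members called in each direction of each comparison, out of 35 calls in all. The trap effect in mutant minus wild-type kidney was 1.09 for Ifi209. The genotype effect under PBS, kidney minus muscle, was 2.86 for Gbp2, 2.71 for Ifit1, 2.49 for Iigp1, 2.43 for Gbp7, 2.41 for Ifit3, -1.12 for Gbp6, -0.90 for Ifit1bl1 and -0.35 for Oas1e. The trap effect in mutants, kidney minus muscle, was 1.30 for Gbp6, 1.23 for Ifi213 and -1.12 for Gbp7.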

How the results depend on the processing

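Direction was checked for the members named by rule, the fixed representatives and the regulatory factors. No called member among them changed direction under any alternative checked, which leaves out the fit without PBS mutants 3 and 4. Counts of called members moved as follows, and where no value shows the cause, the cause was not tested. Calls over all genes are given above only for centring on medians and for leaving out PBS mutants 3 and 4. For the other alternatives, a change particular to the members is therefore not shown. For genotype in PBS muscle (16 called), the 18S covariate gave 4, the actin covariate 9, and leaving out single arrays 10 to 20. For genotype in trap-treated muscle (1), array weights gave 10, the actin covariate and the filter on genes above the median level gave 0, and single arrays 0 to 3. For the trap in mutant muscle (7), array weights gave 14, the 18S covariate 0, the actin covariate 3 and single arrays 3 to 17. For the trap in wild-type muscle (0), the mean of probe sets and quantile normalization gave 1 each, array weights 2 and single arrays 0 to 1, and for the difference of the trap effects in muscle (0), array weights gave 1 and single arrays 0 to 3. For the trap in mutant kidney (5), array weights gave 8, the 18S covariate 1, the compared groups alone 3 and single arrays 3 to 9, lowest without PBS mutant replicate 4. For the trap in wild-type kidney (0), single arrays gave 0 to 1. For the difference of the trap effects in kidney (1), array weights gave 2, quantile normalization 0, the filter on genes above the median level, which leaves fewer genes tested, 0, and single arrays 0 to 2. Leaving out PBS mutants 3 and 4 together, an alternative chosen after seeing the data, gave 2 for genotype in trap-treated muscle, where these arrays enter only the estimate of spread, 2 for the trap in mutant muscle, 1 for the trap in mutant kidney and 0 for the difference of the trap effects in kidney. Genotype in kidney gave 29 to 37 under PBS (34) and 36 to 39 under the trap (39) without single arrays. Between tissues, the filter on level gave 20 for genotype (31) and 17 for wild types (27), where fewer members were tested, and leaving out single animals gave 27 to 33 for genotype, 1 to 5 for the trap (3) and 19 to 28 for wild types, lowest without PBS wild-type replicate 2.

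The replicate numbers did not pair the samples. With the replicate number as a block, the trap in mutant kidney gave 8 called members in place of 5 and the difference of the trap effects in kidney 0 in place of 1. Low signal over background limits Ifi44l, Ifitm7 and Mx1 in both tissues.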
